A study of Mus musculus with 4 samples.

Results

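The neurofilament genes and the other cytoskeletal genes that mark neurons and their progenitors were followed in poly(A) RNA from the skull vault of mouse embryos at stage E14.5. There were 2 libraries of frontal bone and 2 of parietal bone pooled with interparietal bone, called PI libraries below. The labels give no strain, sex, litter, genotype, treatment or number of embryos per library, and nothing in them ties a library to its own embryos. The spread behind every p-value is thus that of these samples alone and could be technical. The series belongs to a study of citrate-carrying extracellular vesicles in biomineralization. The 10 genes were chosen by name, and each matched 1 of the 55487 Ensembl IDs of the count table through the GENCODE annotation of GRCm38. They were Nefl, Nefm, Nefh, Ina, Prph, Nes, Vim, Gap43, Stmn2 and Tubb3. All 10 had counts in every library and passed the filter on low counts, as did 20947 genes in all. They were picked with the frontal against parietal-interparietal contrast of these libraries known, so their differences are a description, and nothing is read from the calls counted among them.

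Intermediate filaments are rope-like polymers whose subunits change as a cell of the nervous system matures. Neural progenitors build filaments of nestin (Nes) and vimentin (Vim), and vimentin is also the main filament protein of mesenchyme. New neurons switch on class III beta-tubulin (Tubb3), the microtubule-destabilizing protein stathmin-2 (Stmn2) and the growth-cone protein GAP-43 (Gap43), and add alpha-internexin (Ina), the filament subunit of young central neurons. The light and medium neurofilament chains (Nefl, Nefm) accumulate as axons extend, the heavy chain (Nefh) comes later and accompanies axon thickening, and peripherin (Prph) joins the filaments of sensory, autonomic and some motor neurons.

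The start regions of 3 members are shown because these genes lay at different points of the group difference, Prph among the lower genes, Ina closer to 0 and Tubb3 at about the same level in both groups. RefSeq entries (GRCm38.p6) were found for 5 of the 10 members, Prph, Ina, Tubb3, Nes and Vim, with 250 bases before and 50 after the start. Nefl, Nefm, Nefh, Gap43 and Stmn2 had none in that table. The start is that of the RefSeq entry, which for Tubb3, Nes and Vim lay inside the gene as annotated by GENCODE. The bases printed before the Tubb3 start thus include part of that gene. Capitals mark the TATA-type hexamer TATAAA and the GC box GGGCGG, each read on both strands. The regions are chr15:99054924-99055223 for Prph, chr19:47014431-47014730 for Ina and chr8:123411303-123411602 for Tubb3, all on the plus strand.
Prph: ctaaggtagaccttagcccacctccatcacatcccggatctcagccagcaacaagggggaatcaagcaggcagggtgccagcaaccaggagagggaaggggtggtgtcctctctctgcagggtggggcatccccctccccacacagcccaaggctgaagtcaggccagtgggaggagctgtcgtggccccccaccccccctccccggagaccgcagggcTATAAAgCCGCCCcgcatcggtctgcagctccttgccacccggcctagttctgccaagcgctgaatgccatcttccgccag
Ina: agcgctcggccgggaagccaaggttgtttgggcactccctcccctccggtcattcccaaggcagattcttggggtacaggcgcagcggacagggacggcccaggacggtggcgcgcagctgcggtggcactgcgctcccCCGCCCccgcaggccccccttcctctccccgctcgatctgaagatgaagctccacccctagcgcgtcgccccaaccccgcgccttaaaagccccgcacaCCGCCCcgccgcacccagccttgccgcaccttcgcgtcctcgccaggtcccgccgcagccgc
Tubb3: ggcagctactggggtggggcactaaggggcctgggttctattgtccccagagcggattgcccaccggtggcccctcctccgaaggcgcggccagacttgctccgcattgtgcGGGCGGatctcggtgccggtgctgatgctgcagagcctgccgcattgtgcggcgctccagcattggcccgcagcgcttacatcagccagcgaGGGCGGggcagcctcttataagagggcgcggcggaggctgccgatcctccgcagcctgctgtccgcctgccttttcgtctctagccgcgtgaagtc
Prph held the TATA hexamer 31 bases before the start, next to a GC box read on the minus strand, while Ina and Tubb3 held no such hexamer and 2 GC boxes each. Vim also held the hexamer, 32 bases before its start, with no GC box, and Nes held 2 GC boxes and no hexamer. The TATA hexamer stood in 13.6% and the GC box in 35.7% of all 32851 RefSeq start regions of 300 bases. The 3 printed genes were picked by their group difference, so these letters only describe the windows. A link between them and the levels below was not tested.

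Between 24069177 and 35555013 counts fell on genes per library, and the 10 members took 0.153% and 0.152% of the counts in frontal libraries 1 and 2, against 0.176% and 0.178% in PI libraries 1 and 2. CPM, the count normalised to library size with TMM factors (trimmed mean of M-values), is used throughout, and a count of 3 corresponded to between 0.0852 and 0.123 CPM. The PI pair differed by 2.88 to 6.40 times the variance of binomial sampling, depending on the count of the gene, and the frontal pair by 5.20 to 247 times. If both mates of a read pair were counted, as an excess of even counts would give (68.3% to 74.4% of counts from 1 to 20, against about 50% by chance), these ratios become 1.44 to 3.20 and 2.60 to 124. Both pairs thus differed by more than counting error, which does not tell separate embryos from separate preparations of one RNA. Each pair entered as 2 samples, and the PI pair was also summed as 1. A locus with rRNA-like sequence took 9.86% and 8.03% of the counts in frontal libraries, against 6.07% and 5.97% in PI libraries, and its part in the differences below was not tested. The bone factors Runx2 and Sp7 were detected in all 4 libraries, at 15.8 to 16.3 and 9.94 to 10.1 CPM in frontal and at 10.7 to 13.5 and 12.4 to 12.9 CPM in PI libraries, and the same libraries held the neural transcripts described below. Of the genes tested 12.7% were called at an adjusted p under 0.05 (edgeR's quasi-likelihood test, Benjamini-Hochberg adjustment), 6.25% higher and 6.44% lower in frontal libraries. That was 1309 higher and 1348 lower genes, and 984 and 1606 when counts were scaled by the library total alone.

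Nefl and Nefm are neighbours on chromosome 14 and overlap in the annotation. Nefl (ENSMUSG00000022055) runs from 68083863 to 68089095 on the plus strand, and Nefm (ENSMUSG00000022054) from 68082590 to 68124846 on the minus strand. The second of 2 annotated Nefm transcripts ends in an exon that covers the first exon of Nefl from 68083863 to 68084970, 1108 bases of which 1008 are Nefl coding sequence. The shared stretch is 32.8% of the exonic bases of Nefl and 19.2% of those of Nefm. The strand and overlap settings of the counting were not given in the sources at hand, so reads from the shared stretch may have been dropped or assigned to either gene. Ina shares 456 exonic bases (14.1% of its own) with Nt5c2, a nucleotidase gene on the opposite strand, which had 1550 to 2413 counts per library. The other 7 members share no exonic base with another annotated gene.

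**Figure D1:**
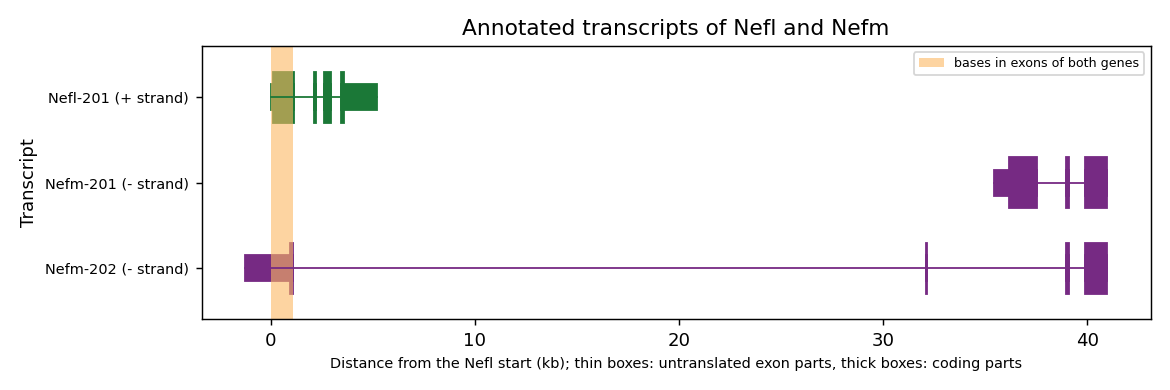
Annotated transcripts of Nefl and Nefm, drawn to scale along the distance from the Nefl start in kb, with coding parts as thick boxes and untranslated exon parts as thin boxes. The shaded band marks the 1108 bases that lie in exons of both genes, all inside the first exon of Nefl and the last exon of the longer Nefm transcript.

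The neurofilament triplet stood lower in frontal than in PI libraries. Nefl, the light chain, had 806 and 1455 counts in frontal libraries 1 and 2, or 28.03 and 41.3 CPM. In PI libraries 1 and 2 it had 1984 and 2378 counts, or 81.2 and 87.6 CPM. Both frontal values lay below both PI values, and frontal library 1 was the lowest of the 4. The means were 34.7 ± 9.40 CPM in frontal and 84.4 ± 4.56 CPM in PI libraries (SD, n = 2 each), 2.43-fold apart, with a log2 fold change of −1.28 ± 0.15 (SE).

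Nefm, the medium chain, had 1746 and 2037 counts in frontal libraries, or 60.7 and 57.8 CPM, against 3267 and 3630 counts in PI libraries, or 133.7 and 133.8 CPM. The libraries of a group agreed more closely for Nefm than for Nefl, and the groups did not overlap. The log2 fold change was −1.17 ± 0.08. Because part of the first Nefl exon is also Nefm exon, the values of these neighbours are not fully separate measurements.

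Nefh, the heavy chain (ENSMUSG00000020396, chromosome 11, 4938754 to 4948064), was the scarcest member. It had 39 and 102 counts in frontal libraries, or 1.36 and 2.897 CPM, against 100 and 111 counts in PI libraries, or 4.09 and 4.09 CPM. Frontal library 1 lay below the other 3, its 95% exact Poisson interval of 0.964 to 1.85 CPM ending under the 2.36 to 3.52 CPM of frontal library 2. Intervals cover counting error only and take every count as a separate read. If both mates of a read pair were counted, they are too narrow. The interval of frontal library 2 overlapped those of the PI libraries, 3.33 to 4.98 and 3.37 to 4.93 CPM. The log2 fold change of −0.93 ± 0.37 became −0.50 without frontal library 1 and −1.60 without frontal library 2.

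Prph (ENSMUSG00000023484, chromosome 15, 99055174 to 99058978), the filament gene of peripheral neurons, went with the triplet. It had 1130 and 1123 counts in frontal libraries, or 39.3 and 31.9 CPM, against 1570 and 1794 counts in PI libraries, or 64.2 and 66.1 CPM. Here frontal library 2 was the lowest of the 4 and the groups did not overlap. The log2 fold change was −0.87 ± 0.11, a 1.83-fold difference. Ina (ENSMUSG00000034336, chromosome 19, 47014698 to 47025327), the subunit of young central neurons, differed less. It had 1973 and 2158 counts in frontal libraries, or 68.6 and 61.3 CPM, against 1985 and 2309 counts in PI libraries, or 81.2 and 85.1 CPM. The groups did not overlap, and the log2 fold change was −0.36 ± 0.09, a 1.28-fold difference.

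The young-neuron genes did not move as one. Gap43, the growth-cone protein (ENSMUSG00000047261, chromosome 16, 42248442 to 42340651), had 2119 and 3398 counts in frontal libraries, or 73.7 and 96.5 CPM, against 3288 and 3793 counts in PI libraries, or 134.5 and 139.8 CPM. Its log2 fold change was −0.69 ± 0.12, between those of Prph and Ina, and it became −0.51 without frontal library 1 and −0.91 without frontal library 2. Stmn2, a regulator of microtubules in growth cones (ENSMUSG00000027500, chromosome 3, 8509360 to 8561606), had 4087 and 5478 counts in frontal libraries, or 142.1 and 155.6 CPM, against 4523 and 5121 counts in PI libraries, or 185.1 and 188.7 CPM. The groups did not overlap, and the log2 fold change was −0.33 ± 0.08.

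Tubb3, the neuronal beta-tubulin used to stain new neurons (ENSMUSG00000062380, chromosome 8, 123411424 to 123422015), stood at about the same level in both groups. It had 5635 and 5645 counts in frontal libraries, or 195.9 and 160.3 CPM, against 4086 and 4698 counts in PI libraries, or 167.2 and 173.1 CPM. Both PI values lay between the frontal values. The log2 fold change was 0.07 ± 0.10, and its sign turned to −0.08 without frontal library 1, which held the highest level.

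**Figure D2:**
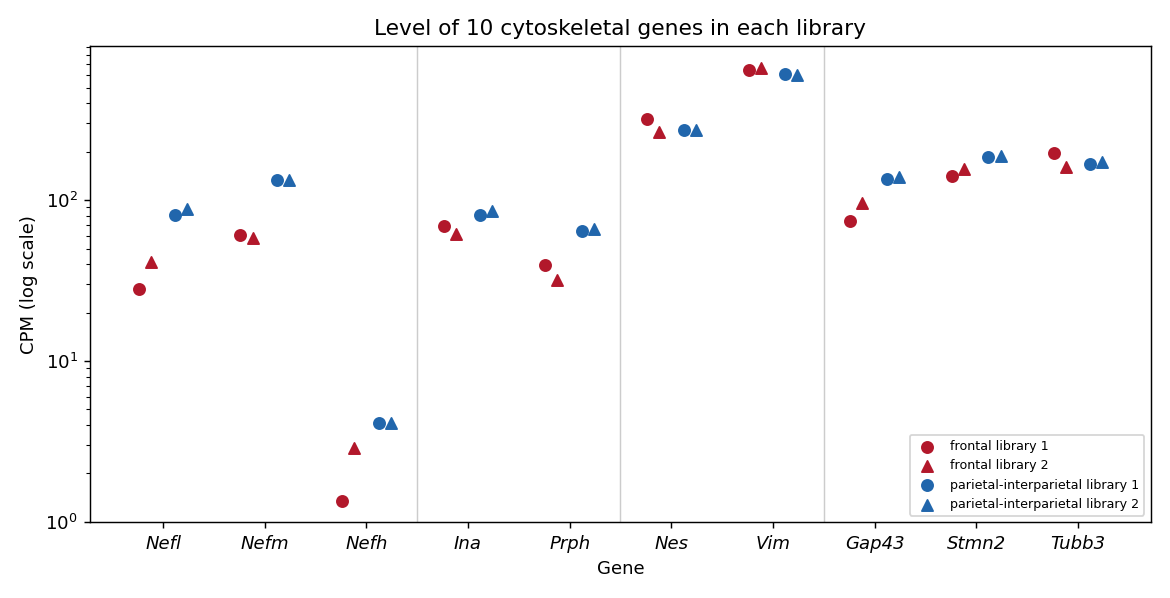
CPM on a log axis of each of the 10 genes in the 4 libraries, with frontal libraries in red to the left and parietal-interparietal libraries in blue to the right. Nefl, Nefm, Nefh, Ina, Prph, Gap43 and Stmn2 have both red points below both blue points, and Nes and Tubb3 have the blue points between the red ones.

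The progenitor filaments differed little between the groups. Nes (ENSMUSG00000004891, chromosome 3, 87971078 to 87980451) had 9171 and 9311 counts in frontal libraries, or 318.9 and 264.4 CPM, against 6658 and 7443 counts in PI libraries, or 272.4 and 274.3 CPM. The groups overlapped, and the log2 fold change of 0.09 ± 0.09 turned to −0.05 without frontal library 1. Vim (ENSMUSG00000026728, chromosome 2, 13573927 to 13582826), the most abundant member, had 18451 and 23477 counts in frontal libraries, or 641.6 and 666.7 CPM, against 14893 and 16251 counts in PI libraries, or 609.4 and 598.8 CPM. The frontal values were above the PI values by little, with a log2 fold change of 0.11 ± 0.07. Nestin and vimentin are also made by muscle progenitors, endothelium and mesenchyme, so their level in these libraries is not a measure of neural progenitors alone.

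Set beside each other, the differences formed a graded order rather than a clean split by role. The median log2 fold change was −1.17 over the triplet, −0.62 over Ina and Prph, −0.33 over the 3 young-neuron genes and 0.10 over Nes and Vim, −0.52 over all 10, and 0.01 over all genes tested. Gap43, a growth-cone gene, differed by more than Ina, a filament gene. Of the 10 members 6 were called, all lower in frontal libraries (Nefl, Nefm, Prph, Ina, Gap43 and Stmn2), beside 12.7% of all genes called and 6.44% called lower. Of the 10, 7 had both frontal values below both PI values and 1 had them above, beside 28.4% and 28.9% of all genes, and 57.3% in either direction. With 1 library left out the members called were 6 lower and 1 higher (without frontal library 1), 7 lower and 3 higher (without frontal library 2) and 4 lower (without either PI library), in fits that called 5373, 7279, 882 and 865 genes. The members were chosen on this contrast, so nothing is read from these counts.

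**Figure D3:**
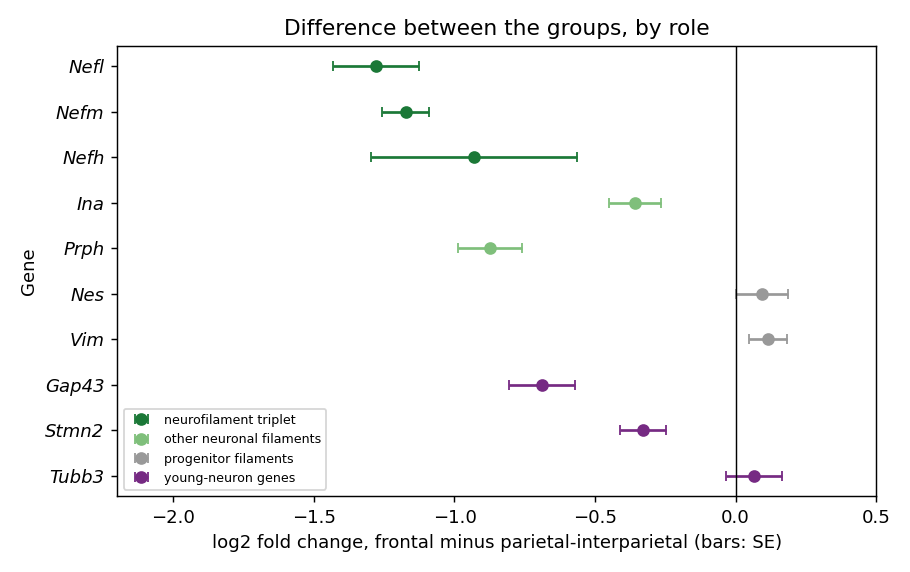
Log2 fold change of frontal minus parietal-interparietal libraries for each gene (points) with its standard error (bars), coloured by role. The triplet, Prph and Gap43 lie between −1.28 and −0.69, Ina and Stmn2 at −0.36 and −0.33, and Nes, Vim and Tubb3 between 0.07 and 0.11.

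Ratios within a library do not depend on the scaling between libraries. For every 100 counts of Tubb3, Stmn2 and Gap43 together there were 21.9 and 24.8 counts of Nefl, Nefm and Nefh together in frontal libraries 1 and 2, against 44.98 and 44.95 in PI libraries 1 and 2. The log2 ratio was −2.19 and −2.01 in frontal libraries and −1.15 in both PI libraries, a difference of −0.95 between the group means. It lay between −0.86 and −1.04 with any 1 library left out, and was −0.85 when the genes were weighted equally. Against Tubb3 alone, Nefm counts stood at 31.0 and 36.1 per 100 in frontal libraries and at 80.0 and 77.3 in PI libraries. Prph against Tubb3 was close to constant inside each group, at 20.1 and 19.9 per 100 in frontal libraries and 38.4 and 38.2 in PI libraries. Nes against Tubb3 was at about one level in all 4 libraries, 162.8 and 164.9 per 100 in frontal and 162.9 and 158.4 per 100 in PI libraries.

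**Figure D4:**
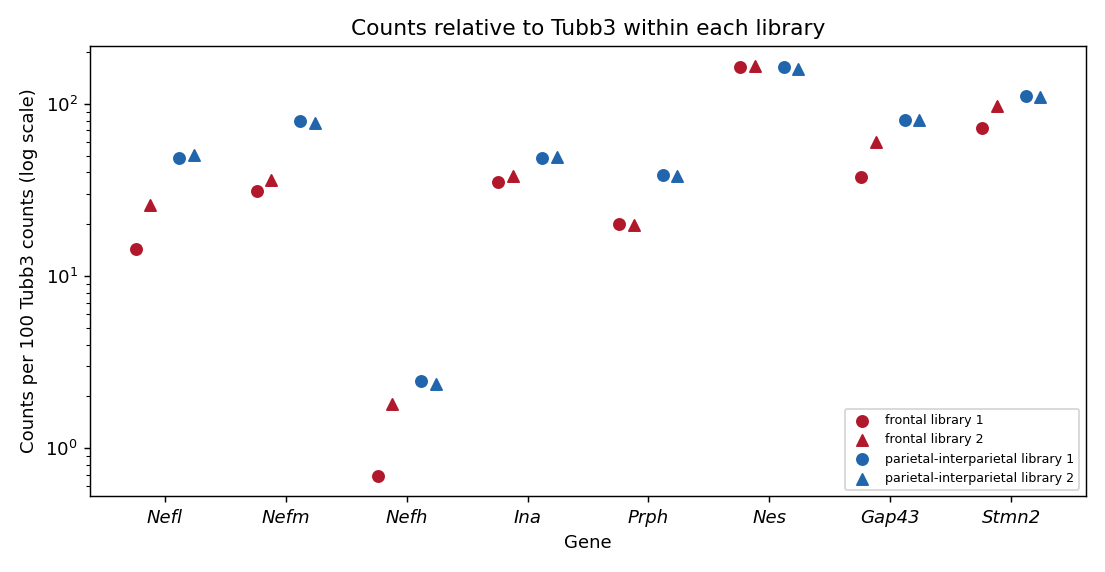
Counts of 8 genes per 100 Tubb3 counts in each library, on a log axis, with frontal libraries in red to the left and parietal-interparietal libraries in blue to the right. Nes sits between 158.4 and 164.9 in all 4 libraries, while the neurofilament genes, Ina, Prph, Gap43 and Stmn2 have both red points below both blue points.

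Among the neuronal filament genes the ratios of Nefl and Nefh to Nefm overlapped between the groups, and those of Prph, Nefm and Nefl to Ina did not. With 2 libraries per group, the levels of 57.3% of all genes did not overlap either. The members were chosen on this contrast, so the ratios are a description. Nefl per 100 Nefm counts was 46.2 and 71.4 in frontal and 60.7 and 65.5 in PI libraries, so the groups overlapped and the frontal libraries lay outside the others on both sides. Nefh per 100 Nefm counts was 2.23 and 5.01 in frontal and 3.06 and 3.06 in PI libraries, again with overlap. Prph per 100 Ina counts was 57.3 and 52.0 in frontal and 79.1 and 77.7 in PI libraries, with no overlap. Nefm per 100 Ina counts was 88.5 and 94.4 in frontal and 164.6 and 157.2 in PI libraries, and Nefl per 100 Ina counts was 40.9 and 67.4 in frontal and 99.95 and 103 in PI libraries.

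Per kilobase of exon, the order of the members by level was led by Vim at 137.9 ± 3.75 CPM per kb in frontal and 127.4 ± 1.58 in PI libraries (SD, n = 2 each). Tubb3 came next, at 95.4 ± 13.5 in frontal and 91.1 ± 2.24 in PI libraries, where Gap43 at 90.1 ± 2.43 did not differ from it beyond the spread. Nes stood at 42.6 ± 0.202 in PI libraries. In frontal libraries Gap43 was lower, at 55.9 ± 10.6 CPM per kb, and not beyond its spread from Nes at 45.5 ± 6.003. Stmn2 followed at 26.6 ± 1.70 in frontal and 33.4 ± 0.458 in PI libraries, where it did not differ from Prph beyond the spread. Ina and Prph did not differ beyond their spread in frontal libraries, at 20.04 ± 1.60 and 17.8 ± 2.62, while in PI libraries Prph was above Ina, at 32.6 ± 0.660 and 25.7 ± 0.843. Nefl and Nefm stood together in frontal libraries at 10.3 ± 2.78 and 10.3 ± 0.350 CPM per kb, and at 24.97 ± 1.35 and 23.1 ± 0.00994 in PI libraries. Nefh was last at 0.532 ± 0.273 in frontal and 1.02 ± 0.000284 in PI libraries. Over the longest transcript in place of all exons Nefm was above Nefl, at 16.1 against 10.3 CPM per kb in frontal and 36.3 against 24.97 in PI libraries. With the whole count divided by the bases that no other gene shares, Nefl and Nefm did not differ beyond the spread in frontal libraries, at 15.3 ± 4.14 and 12.7 ± 0.433, and Nefl was above Nefm in PI libraries, at 37.2 ± 2.01 and 28.6 ± 0.0123. The order of these neighbours thus rests on the length used. Other orders moved as well. Over the longest transcript in PI libraries Stmn2 (54.8) stood above Nes (44.6), and Nefm (36.3) above Ina (25.7). Vim stayed first and Nefh last under all 3 lengths.

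The frontal libraries differed from each other in most members, and not all in one direction. Frontal library 2 over frontal library 1 was 2.14 for Nefh, 1.47 for Nefl, 1.31 for Gap43, 1.09 for Stmn2 and 1.04 for Vim in CPM, and 0.953 for Nefm, 0.893 for Ina, 0.829 for Nes, 0.818 for Tubb3 and 0.812 for Prph. Among the PI libraries the same ratio lay between 0.983 (Vim) and 1.08 (Nefl). As a percentage of the group mean, the SD was larger in the frontal pair for every member.

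Other cytoskeletal genes went both ways, and their counts are read against 6.25% of all genes called higher and 6.44% called lower. Bulk RNA does not tell which cells these transcripts came from, so the lists below do not report on neurons alone. Among 13 tested tubulins 4 were higher and 1 lower (median log2 fold change 0.12, against 0.01 over all genes). The higher genes were the neuronal beta-tubulin Tubb2b, at 702.9 and 684.3 CPM in frontal against 541.7 and 534.7 CPM in PI libraries (log2 fold change 0.37 ± 0.07, edgeR adjusted p = 0.00666), Tuba1c (0.50), Tubb4b (0.42) and the centrosomal gamma-tubulin Tubg1 (0.34). Tuba1b, the tubulin with the highest mean level, was lower at 2243 and 2136 CPM in frontal against 2742 and 2736 CPM in PI libraries (adjusted p = 0.00758). Tubulin genes are close copies of each other, and how the counting treated reads with several matches was not given in the sources at hand. Tuba8 did not pass the filter. No tubulin was called without either PI library or with that pair summed.

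Of 17 microtubule-associated proteins 3 were higher and 5 lower in frontal libraries (median 0.11). Mapt, which encodes the axonal protein tau, was at 70.8 and 68.2 CPM in frontal against 109.8 and 98.9 CPM in PI libraries (log2 fold change −0.59 ± 0.09, edgeR adjusted p = 0.00244). Map2, the dendritic counterpart of tau, was at 157.6 and 161.7 CPM in frontal against 118.8 and 114.9 CPM in PI libraries (0.45 ± 0.08, adjusted p = 0.00516). Dclk2, a doublecortin-like kinase (0.43), and Map1b (0.23) were the other higher genes, and Map4 (−0.28), Map6 (−0.39), Map7 (−0.53) and the plus-end binding gene Mapre2 (−0.34) the other lower ones. With 1 library left out the higher counts were 4, 6, 0 and 0 and the lower counts 6, 6, 0 and 1, in the order frontal 1, frontal 2, PI 1 and PI 2. Map1b lost its call in 7 of 11 alternatives, and Mapt in 1, without PI library 1.

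Of 19 stathmin and growth-cone genes 6 were higher and 2 lower (median 0.10). Basp1, a membrane protein of growth cones that resembles GAP-43, was at 237.7 and 270.1 CPM in frontal against 385.2 and 374.3 CPM in PI libraries (log2 fold change −0.58 ± 0.08, edgeR adjusted p = 0.00161), and it was called in all 11 alternatives. Stmn4 was the other lower gene (−0.53 ± 0.13). Stmn1, the stathmin of dividing and young cells, was higher at 670.6 and 657.2 CPM in frontal against 540.5 and 531.7 CPM in PI libraries (0.31 ± 0.07, adjusted p = 0.0147). The collapsin response mediators Crmp1 (0.55), Dpysl4 (0.48) and Dpysl5 (0.44), the actin-binding drebrin gene Dbn1 (0.29) and Cdk5r1 (0.53), the activator of the neuronal kinase CDK5, were the other higher genes. In the same order, the fits without 1 library gave higher counts of 8, 9, 0 and 0 and lower counts of 5, 4, 1 and 1.

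Of 18 motor and membrane-skeleton genes 5 were higher and 4 lower (median −0.00). Nfasc, which encodes neurofascin, an adhesion protein of the axon initial segment and node, was at 54.1 and 54.3 CPM in frontal against 25.1 and 28.3 CPM in PI libraries (log2 fold change 1.02 ± 0.10, edgeR adjusted p = 0.000264), and it was called in all 11 alternatives. Kif5a, a kinesin known to carry neurofilaments along axons, was at 61.4 and 58.2 CPM in frontal against 82.5 and 85.1 CPM in PI libraries (−0.49 ± 0.09, adjusted p = 0.00595). Its paralog Kif5c (log2 fold change 0.42 ± 0.08) and the synaptic vesicle kinesin Kif1a (0.44 ± 0.08) were higher. Kif21a (0.46) was also higher, and the dynein intermediate chain Dync1i1 (−0.77), the spectrin Sptbn1 (−0.30) and the ankyrin Ank2 (−0.31) lower. Sptan1, the spectrin gene with the highest mean level of the list, had a log2 fold change of −0.10 ± 0.07 and was not called. Leaving out 1 library, in the same order, gave higher counts of 5, 6, 2 and 1 and lower counts of 7, 5, 1 and 0.

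Of 15 other intermediate filament and linker genes 2 were higher and 4 lower (median −0.11). The simple-epithelium keratins Krt8, at 23.2 and 23.6 CPM in frontal against 11.4 and 12.9 CPM in PI libraries (log2 fold change 0.95 ± 0.13, edgeR adjusted p = 0.00143), and Krt18 (1.12 ± 0.15) were higher. The linker plectin (Plec, −0.61 ± 0.11), and the muscle filament genes Des (−0.51) and Synm (−0.50) were among the lower genes. Gfap, the astrocyte filament gene, was at 0.174 and 0.483 CPM in frontal against 1.06 and 0.442 CPM in PI libraries. Krt5, the basal epithelial keratin with the highest mean level of the list, had a log2 fold change of −0.21 ± 0.07 and was not called. The higher counts with 1 library left out were 3, 3, 2 and 2 and the lower counts 7, 7, 0 and 1.

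**Figure D5:**
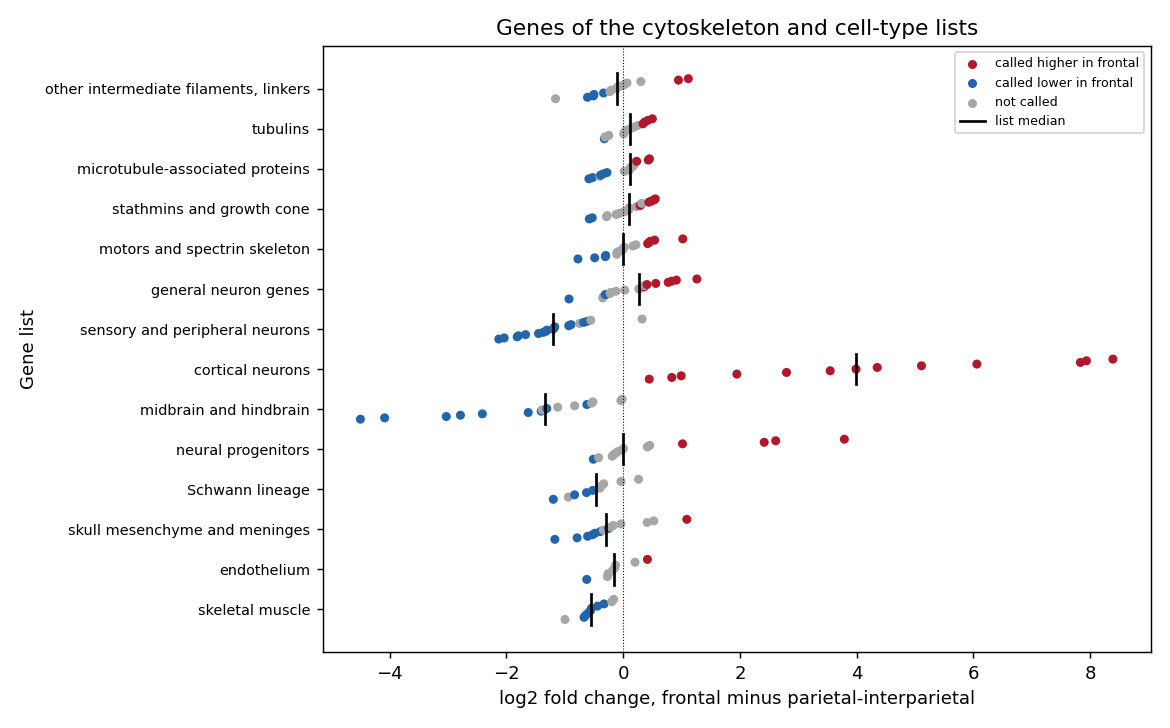
Log2 fold change of frontal minus parietal-interparietal libraries for each tested gene of 14 lists (points, coloured by call) with the list median (black bar). The 5 cytoskeleton lists at the top lie around 0, while sensory and peripheral neuron markers have a median of −1.20 and cortical neuron markers one of 3.99.

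General neuron genes went both ways, beside 6.25% of all genes called higher and 6.44% called lower. Of 19 tested, 7 were higher and 2 lower in frontal libraries (median 0.27), and their summed level was 701 and 681 CPM in frontal against 638 and 635 CPM in PI libraries. Elavl2, an RNA-binding protein of neurons, was at 36.5 and 29.7 CPM in frontal against 18.0 and 17.2 CPM in PI libraries (log2 fold change 0.91 ± 0.13, edgeR adjusted p = 0.00179). Chga, the secretory granule protein chromogranin A (1.26 ± 0.18), and Celf3 (0.77 ± 0.12) were also higher. Syt1, the calcium sensor of synaptic vesicles, was lower at 11.8 and 17.2 CPM in frontal against 26.3 and 29.0 CPM in PI libraries (−0.93 ± 0.17, adjusted p = 0.00652), as was the vesicle protein gene Vamp2 (−0.31 ± 0.08). The higher counts with 1 library left out were 7, 9, 4 and 3 and the lower counts 3, 4, 1 and 1.

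The kinds of neuron marked in the libraries also differed, beside 6.25% of all genes called higher and 6.44% called lower. The marker lists were chosen with earlier results of these data known, so their direction is not independent evidence. Of 19 markers of sensory and peripheral neurons 16 were lower and 0 higher in frontal libraries (median −1.20), and their summed level was 168 and 180 CPM in frontal against 334 and 340 CPM in PI libraries. Scn10a, a sodium channel of pain-sensing neurons, was at 6.43 and 5.62 CPM in frontal against 24.9 and 24.5 CPM in PI libraries (log2 fold change −2.04 ± 0.14, edgeR adjusted p = 2.65e-05). Isl1 and Pou4f1, transcription factors of sensory neurons, had log2 fold changes of −1.67 ± 0.13 and −1.79 ± 0.14. Ntrk3, the neurotrophin-3 receptor, stood at 49.9 and 53.2 CPM in frontal against 40.6 and 41.8 CPM in PI libraries (0.32 ± 0.10, adjusted p = 0.0504) and was called higher in 5 of 11 alternatives. Leaving out 1 library, in the same order, gave lower counts of 16, 18, 11 and 12. Schwann lineage markers, the glia of peripheral nerves, were lower in 4 of 10 and higher in 0, with a summed level of 131 and 137 CPM in frontal against 205 and 196 CPM in PI libraries. Erbb3, the neuregulin receptor of Schwann cells, was among the lower genes at 37.8 and 37.3 CPM in frontal against 56.0 and 51.8 CPM in PI libraries (−0.52 ± 0.10). The lower counts with 1 library left out were 7, 5, 1 and 2.

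Cortical neuron markers were higher in frontal libraries in 13 of 13 (median 3.99), with a summed level of 591 and 610 CPM in frontal against 144 and 142 CPM in PI libraries. Over all genes 6.25% were called higher and 6.44% lower. Neurod2, a basic helix-loop-helix factor of cortical neurons, was at 48.9 and 49.2 CPM in frontal against 1.51 and 1.33 CPM in PI libraries. Neurod6, a related factor, was at 48.4 and 42.6 CPM in frontal against 0.655 and 0.700 CPM in PI libraries, Eomes, a factor of cortical intermediate progenitors, at 53.3 and 53.6 against 0.246 and 0.0737 CPM, and Bcl11a, the most abundant gene of the list, at 106.1 and 109.0 against 61.05 and 59.8 CPM. Most of the PI sum lay in Bcl11a, Bcl11b (51.3 and 52.3 CPM) and Lhx2 (15.6 and 14.7 CPM). Emx1 had 0 counts in PI library 2. Without either PI library 11 of the 13 were called. Midbrain and hindbrain markers were lower in 9 of 16 and higher in 0 (median −1.35), with a summed level of 72.8 and 89.4 CPM in frontal against 155 and 169 CPM in PI libraries, and Pax5 had 0 counts in frontal library 1. En2, a marker of the midbrain-hindbrain boundary, was at 0.591 and 1.08 CPM in frontal against 14.1 and 14.9 CPM in PI libraries, and Barhl1 (−2.41 ± 0.20) and Tal2 (−2.79 ± 0.28) were lower as well. Otx2, the most abundant gene of this list and a factor of forebrain and midbrain, had a log2 fold change of −0.02 ± 0.16 and was not called. The lower counts with 1 library left out were 9, 12, 6 and 7. These markers include genes already known to differ in these libraries, so their direction is not independent evidence. In bulk RNA fewer cells of a type and less RNA per cell cannot be told apart, and the part of these cell types in the differences of the filament genes was not tested.

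Neural progenitor markers, to be set beside Nes and Vim, were higher in 4 of 14 and lower in 1 (median −0.01), with a summed level of 553 and 615 CPM in frontal against 572 and 546.5 CPM in PI libraries. The higher genes were the forebrain progenitor genes Pax6 (log2 fold change 2.61 ± 0.13) and Neurog2 (3.79 ± 0.20) with Sox3 (2.42 ± 0.18) and Sox2 (1.02 ± 0.17). Slc1a3, the glutamate transporter of radial glia, was lower (−0.51 ± 0.11) and lost its call without either PI library. Markers of other cells that use vimentin or nestin were also counted, beside 6.25% of all genes called higher and 6.44% called lower. Skull mesenchyme and meninges genes were lower in 7 of 14 and higher in 1, skeletal muscle genes lower in 7 of 10 and higher in 0, and endothelial genes lower in 1 of 8 and higher in 1. Their summed levels were 5002 and 5194 CPM in frontal against 6692 and 6695 CPM in PI libraries for mesenchyme and meninges, 1604 and 1534 against 2094 and 2075 CPM for muscle, and 416 and 421 against 495 and 482 CPM for endothelium. Pdgfra, a receptor of mesenchyme, was at 233.9 and 252.1 CPM in frontal against 425.3 and 414.7 CPM in PI libraries (−0.79 ± 0.08), with Col1a2 (−0.48 ± 0.06) and the meningeal transporter gene Slc6a13 (−1.17 ± 0.11) lower and the bone sialoprotein gene Ibsp (1.09 ± 0.10) higher. Among muscle genes Myh3 (−0.56 ± 0.07), Actc1 (−0.54 ± 0.07) and Myod1 (−0.67 ± 0.11) were lower, and Ttn, the most abundant, had −0.16 ± 0.08 and was not called. Among endothelial genes Cdh5 was lower (−0.62 ± 0.08) and Cldn5 higher (0.42 ± 0.10), and Kdr had −0.26 ± 0.09 and was not called. In the same order, the fits without 1 library gave lower counts of 8, 10, 4 and 4 for mesenchyme and meninges, 10, 9, 3 and 4 for muscle and 2, 4, 1 and 1 for endothelium. How far these cells set the levels of Nes and Vim was not tested.

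The genes whose levels over the 4 libraries lay nearest to those of Nefl were sought among 10081 genes averaging 10 CPM or more, after each profile was centred on its own mean log2 CPM. They included Ranbp3l, Tmeff2, Rab28 and Tiprl, and no library departed from Nefl by more than 0.0589 to 0.117 log2 units in these. Tmeff2, a transmembrane protein gene, stood at 23.2 and 33.9 CPM in frontal against 66.2 and 66.9 CPM in PI libraries. Nearest to Tubb3 were Ftsj3, Gprasp1, Eif3l, Vps52 and Slc22a17, within 0.0127 to 0.0196 log2 units. With only 4 libraries such likeness is a description of levels and no more.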

How the data were processed

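Poly(A) RNA of 4 libraries was measured. The deposited values were raw counts per gene. The submitters' processing notes name, for the authors' work, the GRCm38 build, featureCounts 2.0.1, HISAT2 2.1.0 and Trim Galore 0.6.7. Strandedness, annotation release and treatment of multiple matches were not stated in any source at hand. Symbols, positions and exons came from GENCODE vM21.

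Genes past filterByExpr (minimum count 10) were tested with edgeR 4.0.16 in R 4.3.3 (quasi-likelihood, TMM factors, two-sided, group as the only term, 2 residual degrees of freedom), with Benjamini-Hochberg adjustment over all genes. SE is the absolute log2 fold change over the square root of F. The fit shares spread across genes, so an SE or p-value does not rest on that gene's own values alone. Members and 14 lists (206 genes) were chosen with earlier results of these data known. The naming rule took all members, from each list the 3 genes with the smallest p and the one with the highest mean CPM, and the 5 nearest profiles. Some genes it took are not reported here. Genes named outside this rule, picked once their values were known, were Tubb4b, Tubg1, Tuba8, Map4, Map6, Map7, Mapre2, Stmn4, Dpysl4, Dbn1, Cdk5r1, Kif1a, Kif5c, Kif21a, Sptbn1, Ank2, Des, Synm, Gfap, Syt1, Sox2, Emx1, Bcl11b, Lhx2, Pax5, Runx2, Sp7 and Nt5c2.

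On simulated data for this comparison (20206 genes in the step) 17.9%, 64.2% and 95.5% of genes with an absolute log2 fold change of 0.5, 1 and 2 were recovered, and 9 unchanged genes were called. The simulation gave both groups the same spread for each gene, whereas the frontal pair varied more than the PI pair. These rates therefore do not show how often the fit to the real libraries errs. Alternatives were other scalings, no filter, DESeq2 1.42.0, counts halved, the PI pair (parietal with interparietal) summed, a replicate term and each library left out. Figures used matplotlib 3.10.9.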

Additional observations from a re-analysis of the deposited data

How the results depend on the processing

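Over the 11 alternatives the log2 fold changes of the members lay at −1.60 to −1.03 for Nefl, −1.23 to −1.15 for Nefm, −1.60 to −0.50 for Nefh, −1.03 to −0.74 for Prph, −0.91 to −0.51 for Gap43, −0.44 to −0.29 for Ina, −0.40 to −0.26 for Stmn2, −0.05 to 0.21 for Nes, 0.06 to 0.14 for Vim and −0.08 to 0.19 for Tubb3. The genes were chosen on this contrast, so a direction kept here is no sign of stability. Among the values of the list genes and the nearest-profile genes 106 gained and 174 lost a call. The log2 ratio of the triplet to the young-neuron genes was −0.85 with genes weighted equally, against −0.95.

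With the PI pair summed as 1 sample 791 genes were called, 379 higher and 412 lower. The lists then gave 0 higher and 0 lower tubulins, 0 and 1 microtubule-associated proteins, 0 and 1 stathmin and growth-cone genes, 1 and 1 motor and spectrin genes, 3 and 1 general neuron genes, 1 lower intermediate filament gene, 0 lower progenitor genes, 1 lower Schwann gene, 4 lower mesenchyme and meninges genes, 4 lower muscle genes and 0 higher endothelial genes. Here and below, smaller relative changes in list counts are left out, among them those of the sensory, cortical, and midbrain and hindbrain lists. Fewer samples entered the summed fit.

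Leaving out 1 library gave 865 to 7279 calls, 423 to 3483 higher and 442 to 3796 lower, the lone library being assumed to vary like the pair. The ranges were 0 to 6 higher and 0 to 2 lower tubulins, 0 to 6 and 0 to 6 microtubule-associated proteins, 0 to 9 and 1 to 5 stathmin and growth-cone genes, 1 to 6 and 0 to 7 motor and spectrin genes, and 3 to 9 and 1 to 4 general neuron genes. They were 0 to 7 lower intermediate filament genes, 0 to 1 higher sensory genes, 0 to 5 lower progenitor genes, 1 to 7 lower Schwann genes, 1 to 3 higher and 4 to 10 lower mesenchyme and meninges genes, 0 to 2 higher and 1 to 4 lower endothelial genes, and 3 to 10 lower muscle genes.

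Without a filter 4 growth-cone genes were lower, 1 sensory gene higher and 2 mesenchyme genes higher, and with counts halved 1 sensory gene was higher. Scaled by total count alone 2 endothelial genes were lower, and 984 genes stood higher and 1606 lower. Deviations of same-numbered libraries from their group means correlated at 0.0206. With 2 libraries per group this cannot settle whether the replicate numbers pair the libraries. The replicate block gave 3306 calls, 4 lower growth-cone genes, 1 higher sensory gene and 2 higher mesenchyme genes. The count of called members, from which nothing is read, was 7 both without a filter and with the replicate block, and 4 with the PI pair summed. The causes of these changes were not tested. Nefh had the fewest counts of the members, 39 in frontal library 1, and so the widest counting intervals relative to its level.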
